A study of Mus musculus with 4 samples.

Results

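Introns that gave many reads on the strand opposite to their gene were taken from the testicular RNA-seq of *Nef-sp* mutant mice. An intron entered when its antisense reads summed to 100 or more over the 4 libraries, and 1058 of the 2754 introns listed with antisense reads did so. The table gives 1 antisense sum for all introns of a gene, so that each of these "introns" is the whole intron set of a host gene, and where the reads lie within it is not known. Members were thus selected on their level over both genotypes, so that the levels below are a description.

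Testes came from mice of the C57Bl/6J background at postnatal day 60. Homozygous *Nef-sp*-/- mice (2 libraries) carry on both alleles a 23 bp deletion, made with the Cas9 nickase and a pair of guide RNAs, and *Nef-sp*+/- mice (2 libraries) carry it on 1 allele, so that no library came from wild-type mice. *Nef-sp* (Rexo5) encodes a testis-specific nuclear 3′ to 5′ exoribonuclease, and the question of the comparison was whether RNA levels change without it. The labels do not say whether the libraries of a genotype came from separate litters or how many testes each held, and p-values measure only the spread between these libraries.

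Genes can lie inside the intron of another gene. A nested gene on the opposite strand is transcribed from its own promoter, and its RNA is antisense to the host. Many nested genes are retrocopies, which arise when an mRNA is copied back into the genome and so lack introns. The testis, in which spermatids condense their chromatin, is known for the expression of many such genes, and it also makes many long noncoding RNAs. Antisense RNAs without a protein are usually nuclear and can be removed by nuclear exonucleases.

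The libraries held between 20659865 and 34442517 counted reads, with *Nef-sp*+/- replicate 2 the deepest. The *Nef-sp* gene itself, annotated as *2610020H08Rik*, had 1843 and 1693 normalized exon reads in *Nef-sp*+/- testes against 407 and 497 in *Nef-sp*-/- testes (log2 fold change -1.97 ± 0.092 SE, edgeR adjusted p = 4.12e-06). Its intron sense reads were lower as well (-1.18 ± 0.18, adjusted p = 0.00845), and it is not among the introns listed with antisense reads in the table used here. Exon reads of the spermatid markers were between 1.32% and 1.60% of all counted reads, those of Leydig cells between 0.0657% and 0.0815% and those of macrophages at most 0.000392%. Of the 31 tested marker genes of 7 cell types, 0 passed the adjusted threshold of 0.05 in edgeR, against a background of 0.00932% of the 10728 exon features tested. An unadjusted p below 0.05 was found for 3 of the 31, a larger share than the 4.80% of all exon features. Of these, the Leydig cell genes *Cyp11a1* (-0.35) and *Cyp17a1* (-0.27) were lower and the spermatid gene *Tnp1* (0.18) was higher in *Nef-sp*-/-. The median log2 fold change was 0.045 over the 6 Leydig cell genes and 0.12 over the 5 spermatid genes. The part of cell composition in the values below was not tested, and in bulk samples fewer cells of a type and less RNA per cell cannot be told apart. Over exons, between 0.999 and 1.01 antisense reads were counted for every 100 sense reads in each library.

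Sequences show what lies opposite the introns with the most reads. The first is a stretch of an intron of *Myo3a* on the strand opposite to the gene, at chr2:22443439-22443681 on the minus strand of mm9, beside the mitochondrial genome at chrM:6814-7056 on the plus strand. It is shown because *Myo3a* gave more antisense reads than any other intron, and within *Myo3a* it was chosen for its long run of identical bases. Capitals mark the bases that differ.
Myo3a intron: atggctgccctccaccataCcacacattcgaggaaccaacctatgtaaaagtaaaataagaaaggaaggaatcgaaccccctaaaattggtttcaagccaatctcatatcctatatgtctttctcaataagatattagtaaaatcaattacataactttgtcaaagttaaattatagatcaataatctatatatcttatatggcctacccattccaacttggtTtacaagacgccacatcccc
chrM: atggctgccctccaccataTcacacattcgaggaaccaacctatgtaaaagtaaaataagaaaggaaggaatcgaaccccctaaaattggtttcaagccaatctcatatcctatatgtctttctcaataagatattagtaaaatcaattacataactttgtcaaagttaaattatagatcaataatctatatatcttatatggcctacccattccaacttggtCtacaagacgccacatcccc
Of the 243 bases, 2 differed, and 203 bases between them were identical. The mitochondrial stretch holds the end of *mt-Co1*, the tRNA genes *mt-Ts1* and *mt-Td* and the start of *mt-Co2*.

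The second is a retrocopy. *Rbpsuh-rs3* lies in an intron of *Cntnap2*, and its bases at chr6:46479706-46479855 on the minus strand are set beside bases 953 to 1102 of the coding sequence of its parent gene *Rbpj*, which encodes the DNA-binding protein of the Notch pathway. Capitals again mark the bases that differ.
Rbpsuh-rs3: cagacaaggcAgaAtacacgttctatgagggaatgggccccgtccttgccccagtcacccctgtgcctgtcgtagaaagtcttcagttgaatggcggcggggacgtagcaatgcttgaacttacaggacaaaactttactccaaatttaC
Rbpj: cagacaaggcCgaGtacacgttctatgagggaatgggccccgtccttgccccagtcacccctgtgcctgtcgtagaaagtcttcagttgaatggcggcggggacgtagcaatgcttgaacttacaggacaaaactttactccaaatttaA
In this stretch 3 of 150 bases differed, and over the 1458 aligned bases of the coding sequence 4 differed. A read of 50 bases from most of the coding sequence of *Rbpj* therefore also matches an intron of *Cntnap2* without a mismatch.

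The last is the start of a nested gene. *Dnajb3*, a DnaJ co-chaperone of spermatids, and *Hils1*, a linker histone of spermatids, are shown as their hosts *Ugt1a2* and *Sgca* are among the highest members and no stretch of their exons matched another gene. The 200 bases before each annotated start are at chr1:90102324-90102523 on the minus strand and chr11:94828775-94828974 on the plus strand. Capitals mark matches on either strand to the core of the cAMP response element TGACG, the CCAAT box CCAAT and the GC box GGGCGG. The full element TGACGTCA, which contains that core, and the TATA box TATAAA were searched too.
Dnajb3: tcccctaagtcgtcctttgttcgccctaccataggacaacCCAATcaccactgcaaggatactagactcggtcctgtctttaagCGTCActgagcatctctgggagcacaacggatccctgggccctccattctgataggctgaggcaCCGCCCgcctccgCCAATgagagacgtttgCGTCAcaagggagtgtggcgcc
Hils1: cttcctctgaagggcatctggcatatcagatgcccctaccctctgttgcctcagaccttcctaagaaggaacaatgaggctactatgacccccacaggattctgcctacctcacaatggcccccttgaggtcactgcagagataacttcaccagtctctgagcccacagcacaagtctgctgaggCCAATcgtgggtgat
*Dnajb3* held 2 matches to TGACG, 2 CCAAT boxes and 1 GC box, while *Hils1* held 1 CCAAT box. Neither held TGACGTCA or TATAAA. Before the starts of all 22345 protein-coding genes, TGACG was found in 17.2%, CCAAT in 30.6%, GGGCGG in 38.0%, TATAAA in 10.1% and TGACGTCA in 1.83%. Before the 110 protein-coding genes nested in an intron of a member on the opposite strand, the shares were 11.8%, 24.5%, 12.7%, 13.6% and 0.909% in the same order. These matches are a description and show no binding.

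Antisense reads were concentrated in few host genes. *Myo3a*, which encodes an unconventional myosin of hair cells, held 12.2% of the 2633189 intron antisense reads. The 10 highest introns held 38.8%, the 50 highest 62.6% and the 100 highest 73.7%, while the 10 highest introns on the sense strand held 17.4% of the sense reads. The members together held 98.3%, which the threshold sets. Their median was 455 reads, 308 had 1000 or more, and 39 had 10000 or more. At the threshold, 6 introns had 100 reads, among them *Antxr1*, *Dnajb2* and *Dscam*, and 5 had 99 reads and stayed out, among them *Dock1*, *Mif* and *Npal2*. Lowering the threshold to 50 reads would give 1347 introns and raising it to 200 would give 810.

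**Figure D1:**
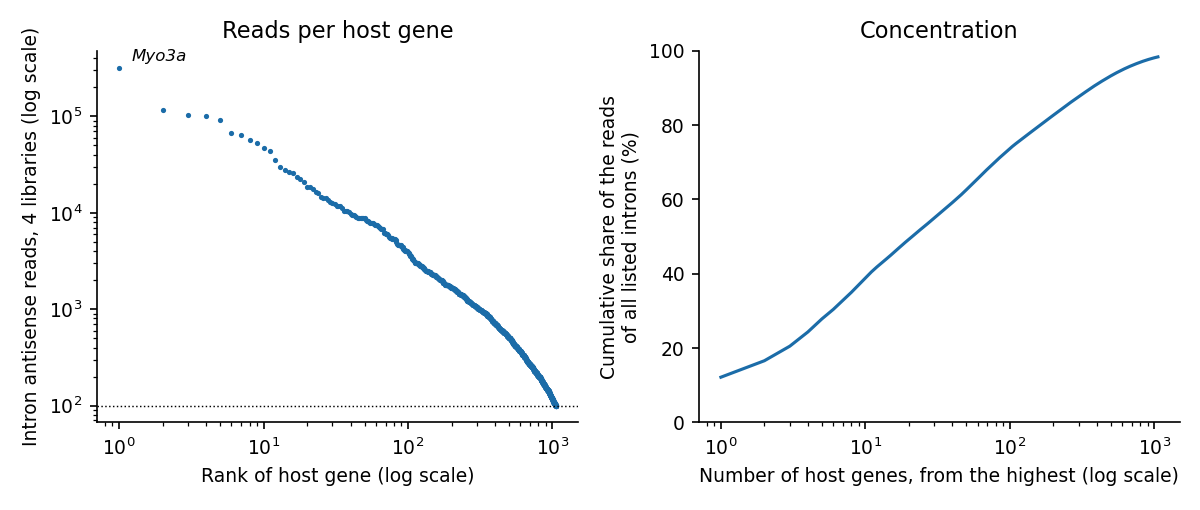
Intron antisense reads summed over 4 libraries for each host gene against its rank (left, both axes logarithmic, dotted line at 100 reads), and the cumulative share of all intron antisense reads in percent against the number of host genes from the highest (right, logarithmic x axis). *Myo3a* stands first with 320443 reads, and the 100 highest host genes hold 73.7%.

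Values of each host are given below for replicates 1 and 2 of *Nef-sp*+/- first and then of *Nef-sp*-/-. *Myo3a* had 81765 and 79581 normalized antisense reads in *Nef-sp*+/- against 81298 and 78126 in *Nef-sp*-/-. Against these, 46 sense reads were counted in its introns over the 4 libraries, and the gene has no exon sense row in the table used here. On the strand opposite to *Myo3a*, 4 pseudogenes are annotated, of which *Gm13340*, *Gm13341* and *Gm13339* are copies of the mitochondrial genes *mt-Co1*, *mt-Co2* and *mt-Nd2*. Of their windows of 50 bases, 27.5%, 36.0% and 17.6%, in this order, occur without a mismatch in the transcript of that gene. In the introns of *Myo3a*, 1121 windows of 50 bases were identical to the mitochondrial genome, in 18 stretches between chr2:22442808-22446054, whereas no other listed intron that could be placed had any such window. How reads with several matches were counted is not given in the sources used here, and the part of mitochondrial RNA in the *Myo3a* reads was not tested.

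Among the next highest, *Itgae* (integrin alpha E) had 28824 and 29801 normalized reads against 29980 and 27663. Its nested gene on the opposite strand is *Gsg2*, the histone H3 kinase haspin, which has 1 exon of 2810 bases at chr11:72948987-72951796. *Tatdn1*, a putative nuclease, had 23216 and 26669 against 26442 and 26297, and the exons opposite belong to *Rnf139*, a ubiquitin ligase of the endoplasmic reticulum that extends beyond the intron. Over the 4 libraries *Rnf139* had 1199 exon sense reads of its own, against 103198 antisense reads in *Tatdn1*. In both *Itgae* and *Tatdn1* the libraries of the genotypes overlapped.

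*Fam19a1*, which encodes a secreted protein of the brain, had 25353 and 25083 normalized reads against 25765 and 24661, and its nested gene is *1700123L14Rik*. *Ugt1a2*, a glucuronosyltransferase, had 21782 and 23487 against 24134 and 22631 and holds *Dnajb3*. *Sgca*, the alpha-sarcoglycan of muscle, had 16048 and 17383 against 17109 and 16815 and holds *Hils1*. These hosts are genes of brain, liver and muscle by their known roles, and each holds a 1-exon gene on the opposite strand. Opposite the introns of *Ugt1a2* also lie 528 exon bases of the noncoding transcript *RP23-324B17.1*.

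*Gnaq*, a G protein subunit, had 14955 and 16482 normalized reads against 16721 and 15849. Opposite lies the pseudogene *Gm10819*, of whose exon windows of 50 bases 75.4% occur in *Pebp1*. The pseudogene *E030024N20Rik* also lies opposite, and 34.4% of its windows occur in other transcripts, mostly *Gm10123*. *Cenpp*, a centromere protein, had 11685 and 15169 against 14425 and 14570. Opposite its introns lie the genes of extracellular matrix proteins *Ecm2*, *Ogn*, *Aspn* and *Omd*, and *Tes3-ps*, of whose windows 59.4% occur in *Dcun1d1*. In *Cenpp* the low value was that of *Nef-sp*+/- replicate 1, and the other 3 libraries lay close together.

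*Cntnap2*, a neuronal adhesion protein and the host of *Rbpsuh-rs3*, had 11952 and 14451 normalized reads against 13784 and 12129. Its introns had 1320 sense reads, the most among the placed hosts of the 15 highest. Of the windows of *Rbpsuh-rs3*, 89.0% occur in *Rbpj*. *Evi5* (opposite *1700013N18Rik*), *Dnajc19* (opposite *Fxr1*, an RNA-binding protein gene), *Ppfibp1* (opposite *1700034J05Rik*), *Pdgfd* (opposite *Ddi1*), *Necab3* (opposite *1700007I08Rik* and *1700003F12Rik*) and the feature 2.NM_001024712, which could not be placed, complete the 15 highest. Their normalized reads per library ranged from 6152 in 2.NM_001024712 to 12170 in *Evi5*. Summed over the libraries, *Fxr1* had 30414 exon sense reads of its own, against 43984 antisense reads in *Dnajc19*.

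**Figure D2:**
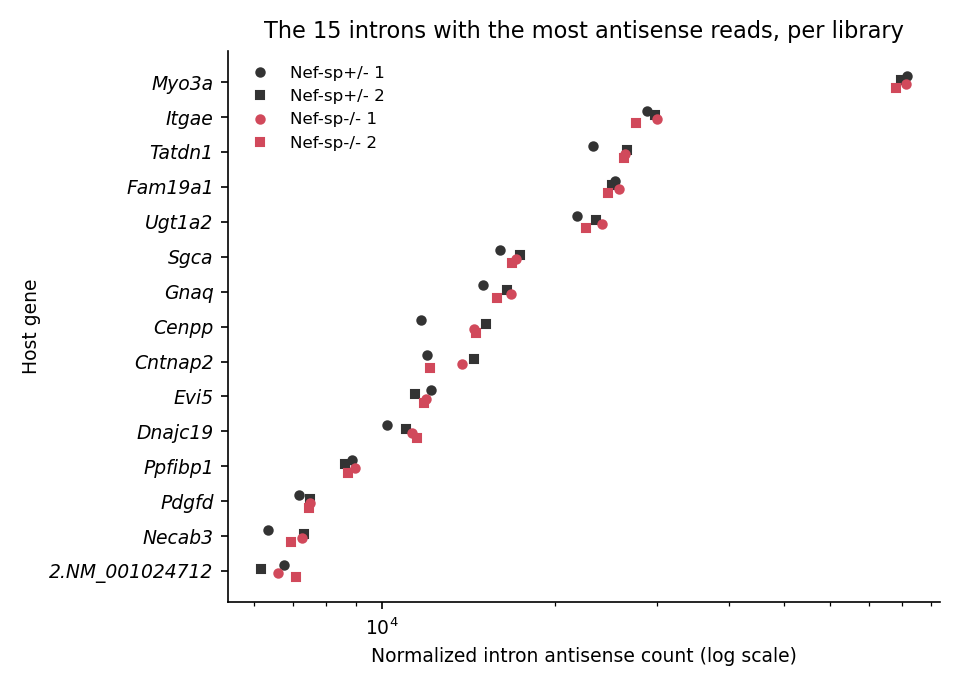
Normalized intron antisense count (logarithmic axis) of the 15 highest host genes, with 1 point for each library, black for *Nef-sp*+/- and red for *Nef-sp*-/-, and circles and squares for replicates 1 and 2. The points of a gene lie close together, with *Cenpp* in *Nef-sp*+/- replicate 1 set apart at 11685.

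The same introns were then read on the sense strand. An intron sense row was listed for 647 members, and 411 had none in the table used here, in which the lowest listed total is 5 reads. Antisense reads exceeded sense reads in 523 of the 647, and in 507 they did so in each of the 4 libraries. They were at least 10 times as many in 304 and at least 100 times as many in 85. Of the 921 other introns with both rows, which all have fewer than 100 antisense reads, 212 had more antisense than sense reads, and the threshold on antisense reads favors this order in the members. Over the 647 members with a sense row, the median antisense share of intron reads was 88.9% and 89.4% in *Nef-sp*+/- against 89.0% and 88.2% in *Nef-sp*-/-. The difference was -0.55 percentage points (exact two-sided permutation test, p = 0.667, where 2 against 2 libraries cannot go below 0.333). The 411 members without a sense row did not enter this median.

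Among the 647 members with a sense row, the largest antisense shares belonged to *Myo3a*, *Patl2*, *Fam19a1*, *Tatdn1* and *Ugt1a2*. *Patl2*, an RNA-binding protein gene of oocytes, had 21010 antisense and 5 sense reads and holds *Trim69*, a ubiquitin ligase gene, and *B2m*, the light chain of MHC class I. The smallest shares among them were those of *Lpp* at 0.235%, *Kpna4* at 1.56%, *Lrp1b* at 2.06%, *Crem* at 2.31% and the feature 2.NM_009340 at 2.47%. *Lpp*, an adhesion protein gene, had 123 antisense and 52245 sense reads. *Crem*, a transcriptional regulator of spermatids, had 144 antisense reads and 6092 sense reads. In these introns the sense strand was the higher by far.

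**Figure D3:**
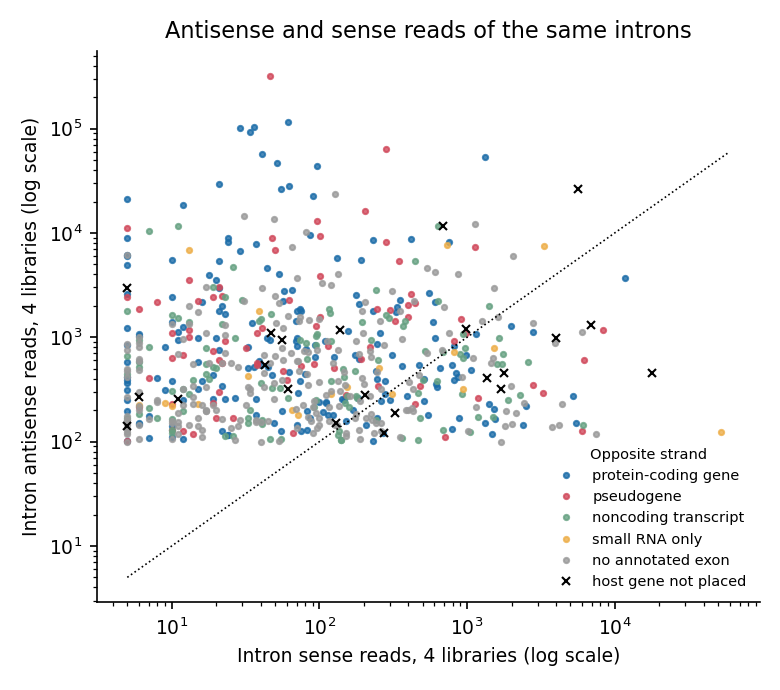
Intron antisense reads against intron sense reads of the same host gene, each summed over 4 libraries on logarithmic axes, for the 647 introns with both rows, colored by the kind of gene annotated on the opposite strand; the dotted line marks equal reads. Above the line lie 523 introns, and *Myo3a* is the highest point.

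What is annotated opposite the introns was not used by the rule. On the annotation of the same build, GENCODE vM1, 1018 members and 1654 other introns could be placed, and the 40 members left out held 2.88% of the members' reads. Each placed intron was put in the first of 4 kinds of opposite-strand exon it overlapped, in the order protein-coding, pseudogene, noncoding and small RNA, or in none. An exon of a protein-coding gene, a pseudogene or a noncoding transcript lay opposite 599 members, or 58.8%, and opposite 531 of the other introns, or 32.1%. Members also had longer introns, with a median of 61.9 kb in all against 35.0 kb, and a longer intron has more room for another gene. Length was not taken out of this comparison, and the shares are given without a test.

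Protein-coding exons lay opposite 277 members, and these held 51.9% of the reads of placed members. Pseudogenes lay opposite 136 members with 25.3% of the reads, and *Myo3a* alone had 320443 of their 636163 reads. Noncoding transcripts lay opposite 186 members with 7.15%, and small RNA genes alone opposite 28 members with 1.31%. No exon was annotated opposite 391 members, and they held 14.4% of the reads. Median reads per member were 701 opposite protein-coding genes, 758 opposite pseudogenes and 334 where no exon was annotated. The highest member of the last kind was *Zfp428*, a zinc finger protein gene, with 5421 and 6152 normalized reads against 6109 and 5577, followed by *Kcnk10*, a potassium channel gene, with 14638 reads over the libraries. *Kcnk10* was named after its value was seen.

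**Figure D4:**
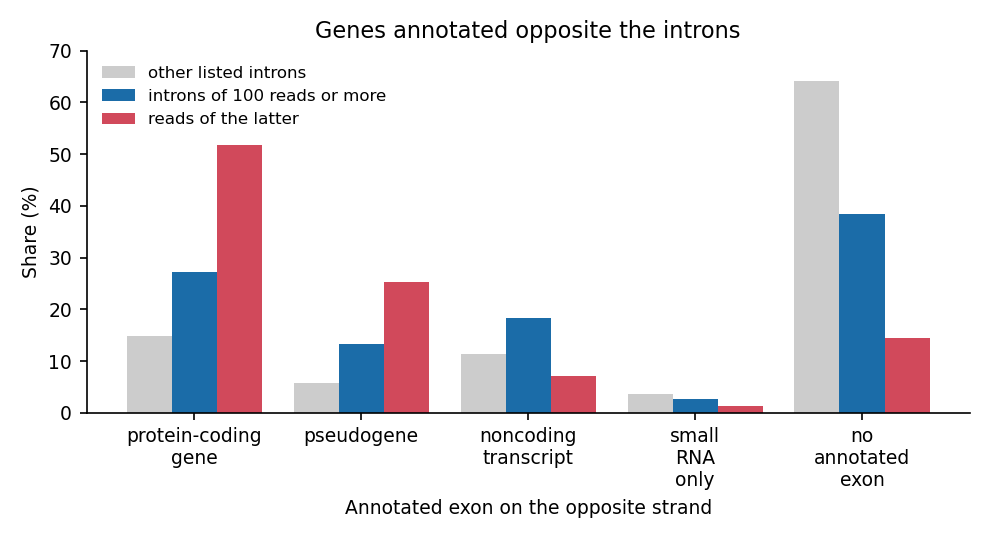
Share in percent of 1654 other listed introns (grey), of the 1018 placed introns with 100 antisense reads or more (blue) and of the antisense reads of the latter (red), by the kind of exon annotated on the opposite strand. Introns opposite protein-coding genes are 27.2% of the members and hold 51.9% of the reads, and introns with no annotated exon are 38.4% and hold 14.4%.

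Nested genes were followed further. Wholly inside 1 intron of a member and on its opposite strand lay 110 protein-coding genes in 100 hosts, and these hosts held 34.7% of the members' reads. Of the 110 genes, 53 had a single exon. Only *Eif2s2* and *Nup43*, 2 of the 110, have an exon sense row of their own in the table used here, while 131 of the 201 genes that overlap an intron of a member but are not inside it have one. Over all annotated protein-coding genes, a row was listed for 21.9% of the 438 inside an intron on the opposite strand, 38.5% of the 195 inside an intron on the same strand and 55.4% of the 21734 not inside an intron. *Gsg2*, *Dnajb3*, *Hils1*, *Ddi1*, *Dnajb7* (in *Xpnpep3*), *Tsga8* (in *Dmd*) and *Cstf2t* (in *Prkg1*), of which *Cstf2t* encodes a polyadenylation factor of germ cells, are among the nested genes without one. Where a nested gene has no exon row, its own expression cannot be read from the table, and whether the antisense reads of the host came from it was not tested.

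Pseudogenes with exons opposite members numbered 216, and 164 of them shared at least 1 window of 50 bases with a protein-coding transcript of another gene. In 49 at least 50% of the windows were shared. In *Ccr9*, a chemokine receptor gene, the pseudogene *Gm10052* shared 100% of its windows, all with *Hnrnpa1*. Exons of *Lztfl1*, *Gm17021* and *Slc6a20a* also lie opposite *Ccr9*. *Lztfl1*, a protein-coding gene of 13 exons, shared 0 windows with a protein-coding transcript of another gene, and matches to pseudogenes were not searched. Of the windows of the pseudogene *Gm6776*, which lies opposite *LOC545291*, 50.4% occur in *Lztfl1*. Of the nested protein-coding genes, 53 shared a window with a protein-coding transcript of another gene. A read that falls in a shared window cannot be told apart by its sequence from a read of the other gene.

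By reads per kb of intron, the highest members were *0610038D11Rik* with 8891, *Sgca* with 5733, *Ugt1a2* with 5703, *Tmem82* with 4892 and *Chrne* with 4403. On GENCODE vM1 the intron of *0610038D11Rik* is only 0.119 kb, so that 1058 reads give a high value. Where these reads fall is not known. Exon antisense reads numbered 1322 in *0610038D11Rik* and 4428 in *Tmem82*. *Chrne*, a subunit of the muscle acetylcholine receptor, has the noncoding transcript *4930544D05Rik* opposite, and *Tmem82* has no exon opposite. On chromosome X lay 24 of the placed members, or 2.36%, and 1.33% of the other introns.

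The genotype comparison asked whether antisense reads differ between *Nef-sp*-/- and *Nef-sp*+/- testes. Of the 1421 introns tested with edgeR, 0% passed an adjusted p of 0.05, and the smallest adjusted p was 0.969. All 1058 members entered the test, and 0 were called. At an unadjusted p below 0.05, 42 members stood, which is 3.97% against a background of 4.50%, 19 with higher and 23 with lower values in *Nef-sp*-/-. DESeq2 called 0 introns as well, with 5 at an unadjusted p below 0.05. Values of all libraries of one genotype lay above those of the other in 154 members with *Nef-sp*-/- higher, or 14.6% against a background of 15.6%, and in 185 with *Nef-sp*-/- lower, or 17.5% against 17.2%. The median log2 fold change was 0.00048 over the members and 0.0034 over all introns tested, and the median size of the fold change was 0.11 against 0.13.

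The log2 fold changes of the 15 highest members lay between -0.028 in *Cntnap2* and 0.11 in *Cenpp*, with standard errors from 0.061 to 0.086. *Myo3a* was at -0.017 ± 0.061 SE and *Itgae* at -0.024 ± 0.066. *Dnajc19* was at 0.10 ± 0.069, with 10196 and 11004 normalized reads against 11258 and 11519, so that its libraries did not overlap. Without *Nef-sp*+/- replicate 2, however, edgeR called 3 introns, all members and all higher in *Nef-sp*-/-, namely *Cenpp* (0.31, adjusted p = 6.26e-07), *Il1rapl2* (0.39, adjusted p = 0.00587) and *Tatdn1* (0.18, adjusted p = 0.00587). In that fit *Nef-sp*+/- is replicate 1 alone, the library in which all 3 were lowest, and its spread is assumed to be that of the other group.

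The smallest unadjusted p among the members belonged to *Il1rapl2*, an interleukin receptor family gene on chromosome X that holds *Tex13a*, a gene of male germ cells. It had 1434 and 1665 normalized reads against 1881 and 1885, with a log2 fold change of 0.28 ± 0.083 (edgeR adjusted p = 0.969). *Rusc1* had 17.5 and 19.04 against 41.4 and 29.2, or 0.94 ± 0.30, on 103 reads in all. *Pkd1l3*, *B3gnt3* and *Hook3* follow with 0.29, 0.39 and 0.51. With 1 library left out, *Il1rapl2* was at 0.18 without *Nef-sp*+/- replicate 1, while *Hook3* was at 0.31 without that library, 0.30 without *Nef-sp*-/- replicate 2 and 0.86 without *Nef-sp*+/- replicate 2. In each of these 5 both *Nef-sp*-/- libraries lay above both *Nef-sp*+/- libraries, which held for 15.6% of all 1421 introns tested. The 5 were picked by their small p among the higher members, so this order is not a separate result.

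On the lower side, *EG434459* had 1448 and 1418 normalized reads against 1194 and 1226 (-0.24 ± 0.080, edgeR adjusted p = 0.969). Several genes of families with shared sequence lie opposite it, among them *Gm4181*, of whose windows 61.6% occur in other transcripts. *Plcb2*, a phospholipase C gene, had 48.96 and 59.2 against 34.5 and 33.9. *Mpnd*, *Aldh5a1* and *Msra* were at -0.47, -0.63 and -0.65 on at most 401 reads. Without *Nef-sp*-/- replicate 2, *Aldh5a1* was at -0.40 and *Msra* at -0.43, and without *Nef-sp*-/- replicate 1 at -0.89 and -0.90. None of these changes passed the adjusted threshold.

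**Figure D5:**
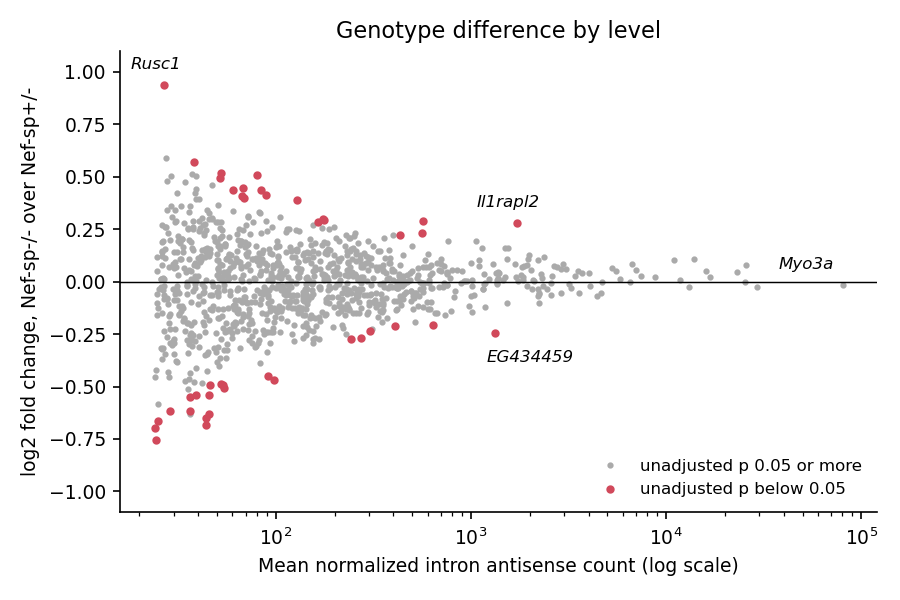
Fold change on the log2 scale, *Nef-sp*-/- against *Nef-sp*+/-, for each of the 1058 introns against its mean normalized antisense count (logarithmic axis), in red where the unadjusted p was below 0.05. Values narrow toward 0 as counts rise, from 0.94 in *Rusc1* to -0.017 in *Myo3a*, and no point passed the adjusted threshold.

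The ratio of antisense to sense reads in the same introns was tested as the strand by genotype term, which 647 members and 658 other introns could enter. Again 0% of the 1305 were called by edgeR (smallest adjusted p 0.376), and 21 members, or 3.25% against a background of 3.68%, had an unadjusted p below 0.05. Except for *Arhgef3*, the 5 smallest rest on few sense reads. *Aplf*, a DNA repair factor, had 8 and 9 sense reads against 0 and 0, with 82.8, 95.2, 82.9 and 65.4 normalized antisense reads (edgeR unadjusted p = 0.000294). *Map2k1* (opposite *Uchl4*) and *Spats1* (opposite *Gm9104*) had 5 sense reads each, all in *Nef-sp*-/-. *Wwp2* had 20 and *Arhgef3* 72 sense reads in all.

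As a whole, intron antisense reads were 2.69% and 2.73% of all counted reads in *Nef-sp*+/- against 2.74% and 2.71% in *Nef-sp*-/- (exact permutation test, p = 0.667). The members' share of them was 98.33% and 98.37% against 98.38% and 98.30% (exact permutation test, p = 1). By kind of gene on the opposite strand, members opposite protein-coding genes took between 51.2% and 52.2% of the reads of placed members in each library, those opposite pseudogenes between 25.1% and 25.9%, and those without an annotated exon between 14.2% and 14.5%. The median log2 fold change of these 3 kinds was -0.0071, -0.0036 and -0.012, that of the 186 members opposite noncoding transcripts was 0.027, and that of the 28 opposite small RNA genes alone was 0.075. At an unadjusted p below 0.05 in edgeR, 8 of the 186 members opposite noncoding transcripts were higher and 3 lower in *Nef-sp*-/-, against a background of 4.50% of the 1421 introns. Opposite protein-coding genes 4 were higher and 5 lower, and opposite pseudogenes 1 and 4. Without an annotated exon 6 were higher and 11 lower, and opposite small RNA genes alone 0 and 0. Differences between the kinds were not tested.

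Of 12 genes known to have an antisense transcript, 3 were listed and 2 were members. *Kcnq1*, a potassium channel gene whose intron gives rise to the imprinted antisense RNA Kcnq1ot1, had 254 and 243 normalized antisense reads against 248 and 315 (0.18 ± 0.12, edgeR adjusted p = 0.969). In the annotation used, *Kcnq1* was among the members with no exon opposite, so that this kind includes a host of a known antisense RNA. *Gnas*, an imprinted G protein gene, had 46.6 and 40.9 against 46.1 and 47.9. *Ube3a* had 26 reads and was not tested. Of the spermatocyte markers, *Sycp3*, a protein of the synaptonemal complex, was a member with 1093 antisense reads, and exons of *Chpt1* lie opposite.

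Genes of nuclear RNA decay act on antisense and other short-lived nuclear RNAs. Of 22 such genes, 20 were tested on exon sense reads and 0 passed the adjusted threshold, against the background of 0.00932% given above, with a median log2 fold change of -0.0037 against -0.00022 over all exon features. *Exosc10*, the nuclear exonuclease of the RNA exosome, was at -0.017 ± 0.062, and *Exosc1*, a subunit of its cap, at -0.24 ± 0.10 with an unadjusted p of 0.0414 by edgeR.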

How the data were processed

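Total testicular RNA was depleted of ribosomal RNA and made into strand-specific libraries, which were sequenced for 50 cycles. The authors removed adapters, used in-house tools to map the reads to mm9, retained those without a mismatch and deposited raw counts by feature, category and strand. The versions, and what was done with reads of several matches, are not given in the sources used here. The submitters' processing notes name DESeq2. The mean normalized count, log2 fold change and p-values that the authors deposited beside the counts were not used.

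The sample labels gave genotype and replicate. The quasi-likelihood test of edgeR 4.0.16 (R 4.3.3) was run with TMM factors and its expression filter (minimum count 10), without covariates, and p-values were adjusted by the Benjamini-Hochberg method within the category. The strand by genotype term was fitted over antisense and sense counts of the same intron. Standard errors were derived from the F statistic, and counts were normalized to the mean effective library size. The fits were checked on simulated counts. Alternatives included DESeq2 1.42.0, other scalings and filters, replicate blocks and each library left out.

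Host genes were matched to GENCODE vM1 by name (972 members) or by a RefSeq synonym (46), and 16 were ambiguous and 24 unmatched. Windows of 50 bases were compared exactly. Members of 100 reads and gene lists were chosen with earlier results of these data known. Named are the 15 highest members, the 5 on each side with the smallest p, the 5 with the smallest p of the strand term, the 5 with the largest and the 5 with the smallest antisense share, 3 on either side of the threshold, the 5 with the most reads per kb of annotated intron and members of the lists. Figures were drawn with matplotlib 3.10.9.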

Additional observations from a re-analysis of the deposited data

How the results depend on the processing

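Of the 1421 introns, 0 were called with the size factors of DESeq2, with library sizes over all categories, in DESeq2 and in 1 fit over all categories. Without the expression filter 0 of 2754 were called, and 0 of 1280 with at least 10 counts in every library. With the replicate block 0 were called for the genotype and 0 for the antisense to sense ratio. Libraries that share a number showed a weak negative correlation of their deviations over introns (-0.11), and the labels do not pair them. A replicate block with crossed numbers, added after seeing the data, called 0 as well. With each library left out in turn, between 0 and 3 introns were called, 3 without *Nef-sp*+/- replicate 2 and 0 otherwise, and for the antisense to sense ratio 0 throughout.

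The difference of *Nef-sp*-/- from *Nef-sp*+/- in the share of intron antisense reads in all counted reads, 0.019 percentage points, ranged from -0.00016 (without *Nef-sp*+/- replicate 1) to 0.038 with a library left out. That of the members' share, -0.011, ranged from -0.047 to 0.025 and was 0.0055 without *Nef-sp*+/- replicate 2. It was 0.022 with a threshold of 200 reads. The median antisense share differed by -0.55, between -0.93 and -0.18 with a library left out, by 0.033 when reads were summed over members and by 0.57 when exon reads were added. With exon reads of both strands added, the share itself was far lower, at 17.2% and 17.1% in *Nef-sp*+/- against 17.9% and 17.5% in *Nef-sp*-/-. The cause of the changes of sign was not tested, and all these genotype differences are smaller than 1 percentage point. Few sense reads limit the ratio, and the low members have wide errors.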
